A study of Rattus norvegicus with 10 samples.

Results

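The genes described here build the cytoskeleton of neurons and drive the growth of their axons. They are 52 genes chosen by name: growth cone proteins, stathmins, tubulins, microtubule-associated proteins, intermediate filaments, actin and its binders, axonal adhesion molecules and transport motors. A gene was read through the probe set with the highest mean signal among those that the platform annotation gives to that gene alone. Such a probe set was found for 47 genes, of 14217 genes so named on the array, and 46 passed the filter on low signals. Tuba1a, Tuba1b, Actb, Cfl1 and Dynll1 had no probe set of their own symbol alone and were not tested as members. Sprr1a, an epidermal cornified envelope gene that injured neurons also make, lay under the filter, with signals from 2.5 to 10.7 over all pools.

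The samples were pools of tissue from the paraventricular nucleus of the hypothalamus of male Sprague Dawley rats aged 10 to 12 weeks. Of the 10 pools, 5 were from rats that had been dehydrated for 3 days and 5 from control rats, with 5 animals and 1 Affymetrix Rat Genome 230 2.0 array to a pool. The labels describe the RNA of each array as prepared independently from separate groups of animals. At 1 point the submitters' design description speaks of the supraoptic nucleus, but the title and the sample labels give the paraventricular nucleus and were followed.

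A neuron's axon is held open by microtubules, hollow tubes of alpha and beta tubulin, and by neurofilaments, which set its calibre. Stathmins bind free tubulin, whereas microtubule-associated proteins such as Map2 and tau bind the finished tube, and kinesins carry cargo along it. Actin filaments form the growth cone at the tip and the spines of dendrites. The magnocellular neurons of the paraventricular nucleus send long axons to the posterior pituitary, where vasopressin and oxytocin are released, and they keep growth-related molecules such as Gap43 and polysialylated Ncam1 in adult life. Neurons and glia of this system are known to change shape when a rat is dehydrated.

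The arrays held the transcripts of the labelled tissue, with some of its neighbours. Of 10 markers of paraventricular neurons 7 passed the filter, vasopressin (Avp) with mean signals of 3531 in control and 4956 in dehydrated pools and oxytocin (Oxt) with 4090 and 4861, while Otp, Pou3f2 and Nos1 lay under it. Pmch and Hcrt, made by neurons of the lateral hypothalamus, were also well detected, Pmch with 3867 and 3958 and Hcrt with 1586 ± 875 and 661 ± 377 (SD, n = 5 each). Control replicate 5 stood apart from the other arrays, at 37.2 on a first principal component (20.7% of the variance) on which they ran from -14.4 to 3.69. The number in its title is also far from the consecutive numbers of the other control arrays. Its member values lay farthest from those of its group, with a median distance of 0.18 on the log2 scale against 0.07 to 0.13 for the other 9 arrays. Without it the differences of 26 of the 46 tested members moved by over 1.5 times, 18 of them from and to a size under 0.1. Of these 26, the other 8 are given with both values where they are described. Stmn2, Map1a and Cntn2, all within 0.1 of 0, changed sign.

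Dehydration was accompanied by little movement of these genes. In limma's fit across 18629 probe sets, with the Benjamini-Hochberg adjusted p held to a threshold of 0.05, the beta tubulin gene Tubb6 rose and the other 45 tested genes did not pass. Over all probe sets 0.580% passed, 0.397% upwards and 0.183% downwards. The count of falls among members was 0, with 4 lower and 5 higher at an unadjusted p under 0.05 (6.01% and 6.70% of all probe sets), so that 9 of 46, or 19.6%, reached that level against 12.7% of all probe sets. The dehydrated and control values did not separate completely for any tested member (0 of 46), where complete separation was found for 3.36% of all probe sets.

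The log2 differences, dehydrated minus control, were centred on 0. They were positive for 24 genes and negative for 22, with a median of 0.01, against a median of 0.00 (-0.0048) over all probe sets. The median size of a difference was 0.08 for the members and 0.10 for all probe sets, and 30 of the 46 genes differed by less than 0.1. The precision was enough to bound many of them. For 34 genes the 95% interval of the difference lay inside ±0.32, that is within 1.25-fold either way. Median centring and quantile normalization each left 21 genes positive, and the median was then -0.01 in both. Over all probe sets the median was -0.024 with median centring and -0.0045 with quantile normalization.

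**Figure D1:**
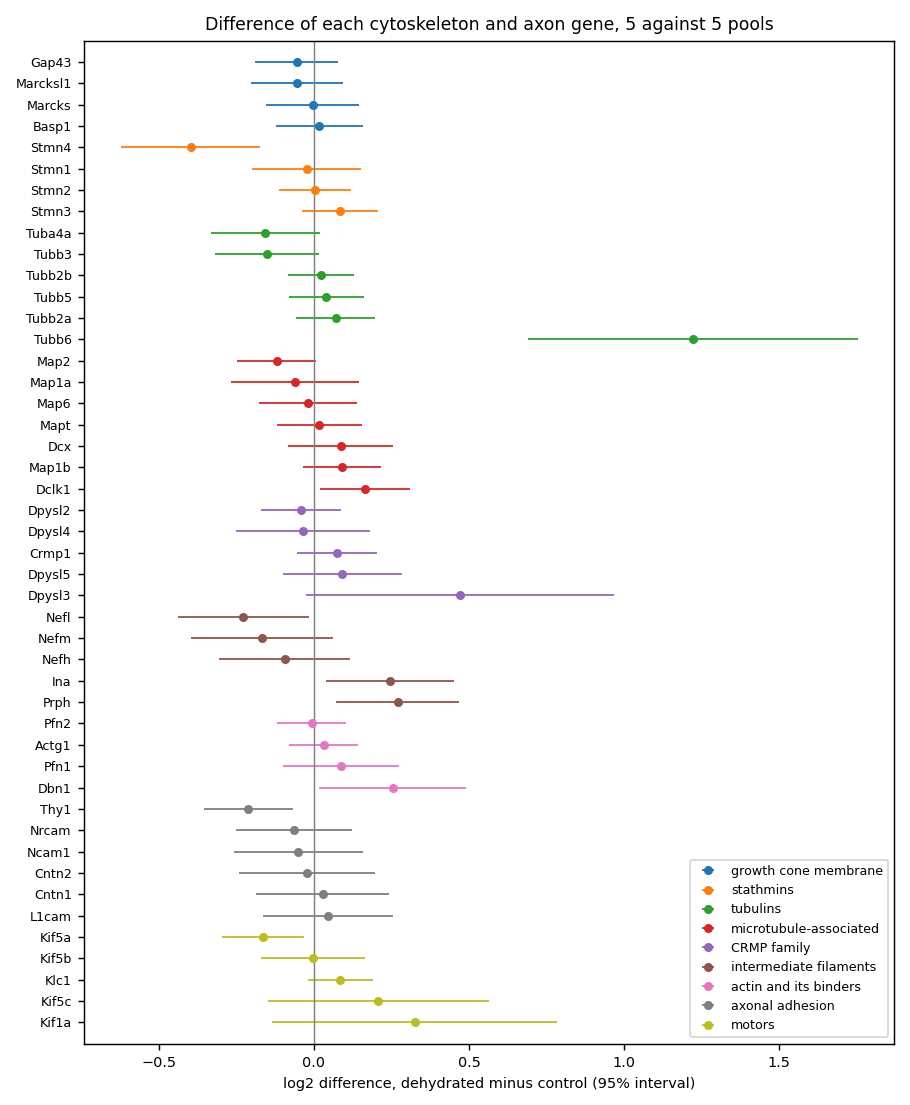
Log2 difference in signal (dehydrated minus control, horizontal axis) of the 46 tested genes, grouped by role in colour, with 95% intervals from the limma fit over 5 pools per group. Most points lie within 0.1 of the zero line, and Tubb6 at 1.22 and Stmn4 at -0.40 lie farthest from it on either side.

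Tubulins, the subunits of the microtubule, held the single call. Tubb6, the class V beta tubulin, which is made in many tissues, had signals of 38.6, 42.0, 49.1, 19.4 and 38.3 in dehydrated pools 1 to 5. In control pools 1 to 5 the signals were 23.5, 16.7, 12.4, 8.7 and 9.2. Dehydrated replicate 4 was the lowest of its group and lay below control replicate 1, the highest of the other, so the groups overlapped at that pair. The mean went from 14.1 ± 6.15 to 37.5 ± 11.0 (SD, n = 5 each), a log2 difference of 1.22 ± 0.25 (SE), or 2.33-fold, with an adjusted p of 0.0367 (95% interval 0.69 to 1.75).

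The Tubb6 call was a narrow one on a dim probe set. Its mean over all arrays, 25.8, was just above the filter limit of 24.1, and the control mean alone was under it, so the gene entered the test through the dehydrated pools. The call was lost without dehydrated replicates 1, 2, 3 and 5 (adjusted p = 0.0900, 0.0669, 0.123 and 0.0840) and without control replicates 2, 3, 4 and 5 (0.0611, 0.0805, 0.0819 and 0.0530), and was kept without dehydrated replicate 4 (0.0152) and control replicate 1 (0.0181). The log2 difference ran from 1.11 to 1.42 over these fits. Testing all probe sets regardless of signal also ended the call (adjusted p = 0.1002), as did a fit with a constant prior variance (0.0890). A second Tubb6 probe set was dimmer still, with signals from 1.2 to 11.0, and differed by 0.12 ± 0.35 in the fit without a filter. Averaging both gave 0.67 (adjusted p = 0.286).

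Tubb2a, Tubb5 and Tubb2b, the tested tubulins with the highest signals, stayed close to their control level. Tubb2a, a major beta tubulin of neurons, had 2692, 2748, 3027, 3082 and 3025 in dehydrated pools and 2931, 2848, 2633, 2987 and 2489 in control pools. The groups overlapped in part. The dehydrated pools with 3027, 3082 and 3025 lay above every control, and the controls with 2633 and 2489 below every dehydrated pool. The difference was 0.07 ± 0.06 (95% interval -0.06 to 0.20, adjusted p = 0.658), or 0.03 without control replicate 5, the lowest control. Tubb5, a beta tubulin of most cell types, had 1393, 1521, 1513, 1647 and 1513 in dehydrated and 1408, 1390, 1452, 1541 and 1586 in control pools. It differed by 0.04 ± 0.06 (0.07 without control replicate 5), and its second probe set by 0.05 ± 0.09. Tubb2b, a beta tubulin of migrating and growing neurons, differed by 0.02 ± 0.05, and its 95% interval ran from -0.08 to 0.13.

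Tubb3, the neuron-specific beta tubulin, lay lower in most dehydrated pools. The signals were 714.4, 816.6, 775.6, 877.7 and 907.3 in dehydrated and 836.4, 815.5, 1015.2, 868.9 and 1014.9 in control pools. Control replicates 3 and 5 were higher than any other pool, and the rest of the 2 groups interleaved, with a difference of -0.15 ± 0.08 (adjusted p = 0.439), or -0.11 without control replicate 5. The alpha tubulin Tuba4a was at -0.16 ± 0.08 (adjusted p = 0.447), with its lowest signal, 634.7, in dehydrated replicate 1 and its highest, 926.6, in dehydrated replicate 5.

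Stmn4 was the gene that lay lowest after dehydration. It encodes a stathmin of neurons, a protein that holds tubulin dimers and keeps them from joining a microtubule. Its signals were 308.5, 352.4, 386.7, 434.1 and 304.0 in dehydrated pools and 424.5, 429.3, 413.6, 538.6 and 549.3 in control pools. Only dehydrated replicate 4 reached into the control range. The means were 357 ± 54.8 and 471 ± 66.9 (SD, n = 5 each), a log2 difference of -0.40 ± 0.11 that did not pass (adjusted p = 0.108, from 0.0773 to 0.231 with an array left out). The 95% interval ran from -0.62 to -0.17.

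The other stathmins lay near 0. Stmn2, the stathmin of growing axons, differed by 0.00 ± 0.05 (log2 0.0037), with a 95% interval of -0.11 to 0.12, and its second probe set by 0.0044. Stmn3 had 2236, 2244, 2472, 2663 and 2364 in dehydrated and 2333, 2243, 2106, 2409 and 2202 in control pools, a difference of 0.08 ± 0.06 (adjusted p = 0.572). Stmn1, the founding member of the family, had 1721, 1920, 2475, 2367 and 2166 in dehydrated and 2180, 2102, 2117, 2337 and 2002 in control pools. Its dehydrated pools spread more widely (SD 311) than the controls (SD 124) around almost the same mean, and it differed by -0.02 ± 0.08 (-0.05 without control replicate 5). No test of Stmn4 against the other stathmins was made.

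**Figure D2:**
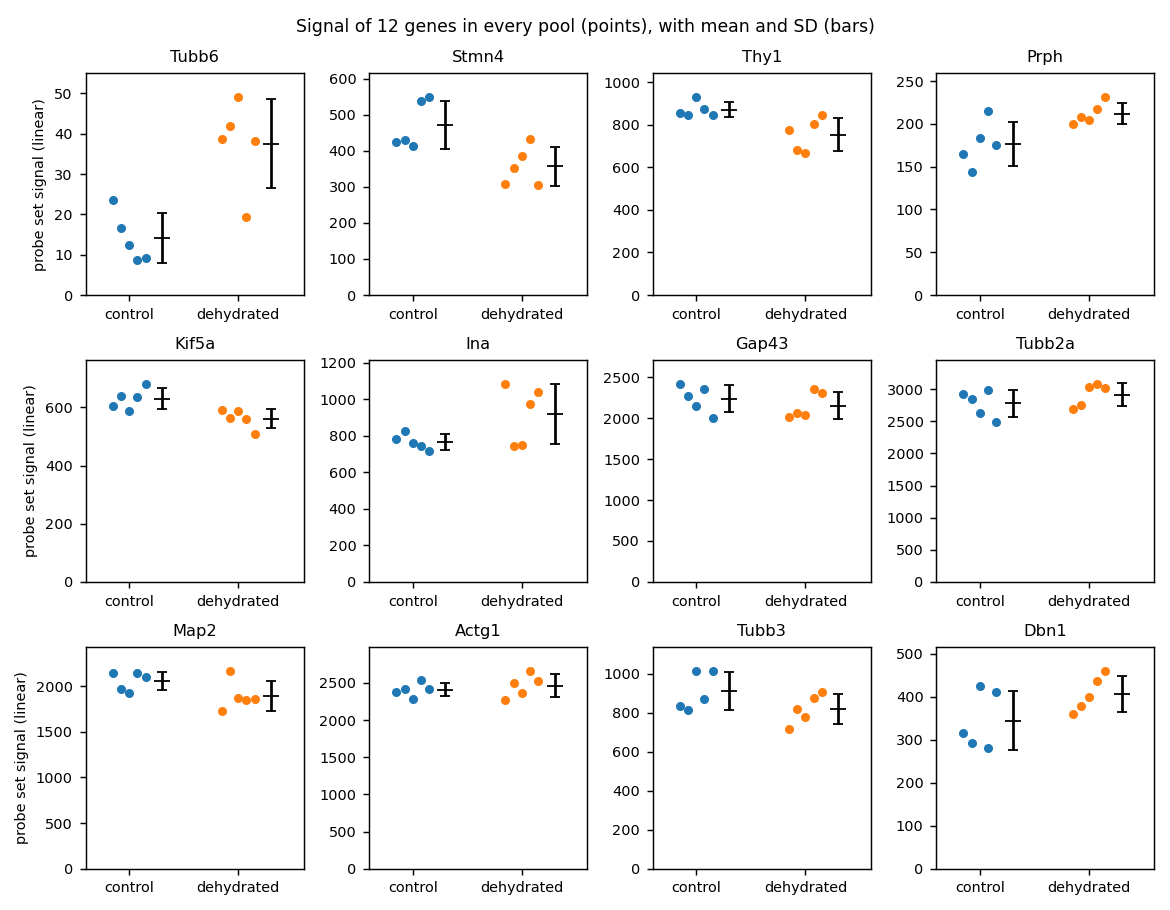
Probe set signal (linear scale, axis from 0) of 12 genes in each of the 5 control (blue) and 5 dehydrated (orange) pools, with the mean and SD as black bars. Tubb6 is higher in 4 of the 5 dehydrated pools than in any control pool, and Stmn4 is lower in 4 of 5. Gap43 and Actg1 overlap over most of their range, and Tubb2a overlaps in part.

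The growth cone proteins, which bind the inner face of the membrane and steer actin there, kept close to control. All 4 tested members lay between -0.055 and 0.018, with adjusted p from 0.760 to 0.986. Gap43, the protein most used as a sign of axon growth, had 2020, 2059, 2034, 2359 and 2304 in dehydrated and 2420, 2275, 2143, 2354 and 2003 in control pools. Both groups spanned nearly the same range, and the difference was -0.05 ± 0.06 (log2 -0.055, 95% interval -0.19 to 0.08). Without control replicate 5, the lowest control, it was -0.09 ± 0.06 (adjusted p = 0.494). Basp1, a partner of Gap43 at the membrane, differed by 0.02 ± 0.07, and Marcksl1, a relative of Marcks, by -0.05 ± 0.07.

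Marcks, a protein kinase C substrate that crosslinks actin, gave a different reading on different probe sets. The brightest had 985.2, 1128.5, 1221.6, 1119.8 and 1115.5 in dehydrated and 1180.2, 1136.8, 1179.3, 1157.4 and 940.0 in control pools, a difference of 0.00 ± 0.07 (log2 -0.0042, adjusted p = 0.986). Control replicate 5 lay well below its group, and without it the difference was -0.07. Another Marcks probe set, with a mean signal of 605, was lower by more, at -0.27 ± 0.08 (adjusted p = 0.131). There the dehydrated pools had 470.8, 580.8, 539.1, 565.2 and 585.1 and the control pools 692.3, 722.4, 682.9, 632.8 and 575.7, so that all dehydrated values lay below the first 4 controls and control replicate 5 lay among them. Without control replicate 5 this probe set passed, at -0.32 ± 0.07 (adjusted p = 0.0420), while the brightest one did not (adjusted p = 0.645). The other 3 kept Marcks probe sets differed by -0.13, -0.11 and 0.00 (log2 0.0015).

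Proteins that bind microtubules were measured by 7 genes, of which 4 were higher and 3 lower without any passing in limma (0, with 1 at an unadjusted p under 0.05). Map2, which marks and spaces the microtubules of dendrites, had 1728, 2168, 1870, 1851 and 1857 in dehydrated and 2141, 1968, 1926, 2144 and 2101 in control pools. Apart from dehydrated replicate 2, the highest of all 10, the dehydrated pools lay below every control, and the difference was -0.12 ± 0.06 (adjusted p = 0.422). Map1b, the microtubule protein of growing axons, had 2222, 2122, 2370, 2511 and 2597 in dehydrated and 2293, 2342, 2096, 2192 and 2165 in control pools, a difference of 0.09 ± 0.06 (adjusted p = 0.553). Tau (Mapt), which binds axonal microtubules, differed by 0.02 ± 0.07, Map1a by -0.06 ± 0.10 and Map6, a stabiliser against cold, by -0.02 ± 0.08. The Map6 signals of the 5 dehydrated pools were close together, from 240.2 to 251.5, where those of the controls ran from 219.1 to 290.8.

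Dclk1, a kinase with doublecortin domains that bind microtubules, was higher on each of its 3 kept probe sets. The brightest had 473.5, 504.1, 553.3, 449.8 and 544.3 in dehydrated and 463.6, 457.0, 470.7, 433.2 and 420.2 in control pools, a difference of 0.17 ± 0.07 (adjusted p = 0.329). A second probe set separated the groups completely, with 450.7 to 465.5 in dehydrated and 369.0 to 401.1 in control pools, and differed by 0.22 ± 0.06 without passing (adjusted p = 0.0817). Of the 30 further probe sets of members it was the 1 with groups that did not overlap, a share near the 3.36% of all probe sets. The third differed by 0.06 ± 0.08. Doublecortin itself (Dcx), the related protein of young migrating neurons, differed by 0.09 ± 0.08 and had signals from 101.5 to 124.3.

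The collapsin response mediator proteins carry semaphorin signals to the growth cone and help to load tubulin onto the microtubule. Of 5 members 3 were higher and 2 lower, and the smallest adjusted p was 0.416. Dpysl2 (CRMP2), the family's main axonal member, had 2167, 2333, 2212, 2313 and 2312 in dehydrated and 2510, 2478, 2339, 2397 and 1987 in control pools. All 5 dehydrated pools lay below the first 4 controls and above control replicate 5, with a difference of -0.04 ± 0.06 that came to -0.10 without that control (adjusted p = 0.329). Crmp1 had 349.9, 353.2, 394.8, 394.3 and 386.2 in dehydrated pools and 359.9, 350.1, 356.3, 351.5 and 361.5 in control pools, so that dehydrated replicates 3, 4 and 5 were above all controls (0.08 ± 0.06, adjusted p = 0.636). Dpysl3 (CRMP4), a dim member, had 67.3, 40.7, 57.2, 107.4 and 62.4 against 32.0, 36.5, 53.3, 78.3 and 37.3, with 1 high pool in each group and a difference of 0.47 ± 0.23 (adjusted p = 0.416). Dpysl4 and Dpysl5 differed by -0.03 and 0.09, the latter by 0.16 without control replicate 5.

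Intermediate filament genes had differences of both signs, none of which passed. On the probe sets that stood for the genes, the 3 neurofilament subunits were lower after dehydration, and peripherin and alpha-internexin were higher. A second probe set of the subunit Nefl was higher, as described below. In limma 0 of 5 passed, with 3 at an unadjusted p under 0.05, a level that 12.7% of all probe sets reached. Prph, the filament of peripheral and some central neurons, had 199.4, 207.9, 204.6, 217.4 and 231.5 in dehydrated and 165.2, 144.2, 183.9, 214.9 and 174.9 in control pools. Control replicate 4 was the only control in the dehydrated range (0.27 ± 0.09, adjusted p = 0.238). Ina, alpha-internexin, had 1084.8, 745.6, 748.3, 975.9 and 1042.8 in dehydrated and 784.6, 826.3, 759.0, 743.4 and 716.6 in control pools. Dehydrated replicates 1, 4 and 5 stood above every control and replicates 2 and 3 lay among them (0.25 ± 0.10, adjusted p = 0.304), and a second Ina probe set differed by -0.01 ± 0.12.

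The neurofilament light chain Nefl gave opposite readings on its 2 probe sets. The brighter one had 797.9, 837.7, 598.9, 794.6 and 677.5 in dehydrated and 863.0, 918.8, 898.1, 981.5 and 680.4 in control pools, and was lower by -0.23 ± 0.10 on the log2 scale (adjusted p = 0.364). The 4 controls other than replicate 5 lay above all dehydrated pools, and without that array the difference was -0.31 ± 0.09 (adjusted p = 0.106). The other had 573.8, 540.6, 547.9, 574.3 and 506.5 in dehydrated and 454.9, 392.5, 402.0, 526.2 and 394.7 in control pools, with control replicate 4 alone inside the dehydrated range. It was higher by 0.34 ± 0.08 (adjusted p = 0.0648). The medium and heavy chains, each read by 1 probe set, differed by -0.17 ± 0.11 (Nefm) and -0.09 ± 0.10 (Nefh). Without control replicate 5 Nefm came to -0.26 ± 0.09 (adjusted p = 0.215).

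Since both Nefl probe sets sit on the same array, their ratio could be compared within each pool. The log2 ratio of the brighter to the other ran from 0.13 to 0.63 in dehydrated and from 0.78 to 1.22 in control pools, so the groups did not overlap (difference -0.57, exact two-sided permutation p = 0.0079, n = 5 each, the smallest these pools can give). The same ratio was taken for all 30 pairs formed by a member's brightest probe set and its further ones, a comparison added after the values had been seen. A pair of the Marcks probe sets also separated the groups, with a difference of 0.26 (exact p = 0.0079), and Map2's pair differed by -0.43 (exact p = 0.0238). Adjusted over the 30 pairs no ratio passed (0, with 3 at an unadjusted p under 0.05), and the smallest adjusted p was 0.119. Even at the smallest exact p, 2 pairs alone cannot pass this adjustment, and more pairs with a small p would have been needed. Whether the Nefl and Marcks ratios differ between the groups is therefore not decided by it. For 13 of the 19 genes with several kept probe sets, the probe sets differed in sign. The same count over all genes was not taken, and for differences centred on 0 mixed signs need no disagreement between probe sets. Those of Pfn2 were -0.01 and 0.07, and those of Kif5b 0.00 and 0.07. The pair for Map2 was -0.12 and 0.31, and for Map1b the 3 differences were 0.09, -0.22 and 0.36. Stmn2, Klc1 and Tubb5 had probe sets within 0.01 of each other.

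**Figure D3:**
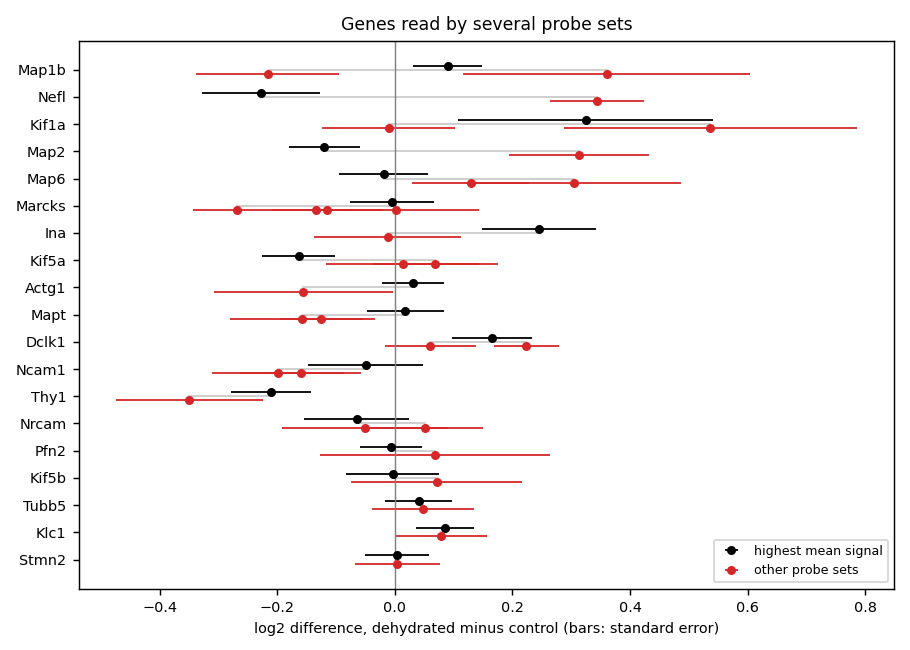
Log2 difference (dehydrated minus control, horizontal axis, bars are standard errors) for the 19 genes with several probe sets above the filter, with the brightest probe set in black and the others in red. The red and black points of Nefl (0.34 and -0.23) and Map2 (0.31 and -0.12) lie on opposite sides of zero, and those of Stmn2, Klc1 and Tubb5 coincide.

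Actin and the proteins that bind it were measured by 4 genes, of which 3 were higher, 1 was lower and none passed in limma (0, with 1 at an unadjusted p under 0.05). Actg1, cytoplasmic gamma actin, had 2268, 2497, 2364, 2665 and 2521 in dehydrated and 2384, 2415, 2288, 2536 and 2418 in control pools (0.03 ± 0.05, 95% interval -0.08 to 0.14). This value turned to -0.03 under quantile normalization, and a second, dim probe set gave -0.16 ± 0.15. The profilins, which feed actin monomers to growing filaments, differed by 0.09 ± 0.09 (Pfn1, 0.18 ± 0.06 without control replicate 5, adjusted p = 0.220) and -0.01 ± 0.05 (Pfn2). Pfn2, the neuronal form, had 1275, 1189, 1130, 1301 and 1281 in dehydrated and 1215, 1261, 1254, 1256 and 1211 in control pools, all of the controls lying within the dehydrated range. Dbn1, drebrin, an actin-binding protein of dendritic spines, had 359.2, 379.1, 398.9, 437.6 and 460.7 in dehydrated and 315.0, 291.9, 426.2, 280.0 and 411.0 in control pools. Control replicates 1, 2 and 4 lay below all dehydrated pools and replicates 3 and 5 among them, with a difference of 0.25 ± 0.11 (adjusted p = 0.365), or 0.32 ± 0.11 without control replicate 5 (adjusted p = 0.181).

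Beta-actin had no probe set under its own symbol, but the array carries 3 control probe sets for it, placed towards the 5 prime end, in the middle and at the 3 prime end of the transcript. The 3 prime one had 1466, 1473, 1341, 1413 and 1364 in dehydrated and 1252, 1293, 1357, 1380 and 1941 in control pools. Control replicate 5 was far above its group on all 3. The log2 differences were -0.15, -0.01 and -0.02 from 5 prime to 3 prime (exact two-sided permutation p = 0.810, 0.984 and 0.968, n = 5 each, smallest possible 0.0079, and 0.984 each after adjustment over 8 control measures). Without control replicate 5 they turned to 0.09, 0.19 and 0.10 (exact p = 0.405, 0.103 and 0.0714). A measure of RNA integrity and labelling, the 3 prime signal over the 5 prime signal on the log2 scale, was 2.84 ± 0.17 in dehydrated and 2.70 ± 0.33 in control pools (exact p = 0.516), and it was lowest in control replicate 5, at 2.16.

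Of 6 adhesion molecules of the axon surface, 2 were higher and 4 lower, with Thy1 lower on both of its probe sets and none passing in limma (0, with 1 at an unadjusted p under 0.05). Thy1, a surface glycoprotein of mature projection neurons, had 774.5, 682.8, 666.4, 801.9 and 844.9 in dehydrated and 857.3, 844.0, 930.5, 873.1 and 847.5 in control pools. The groups met only where dehydrated replicate 5 lay just above control replicate 2. The difference was -0.21 ± 0.07 (95% interval -0.36 to -0.07, adjusted p = 0.205), and the second probe set, with 52.1 to 77.3 and 73.8 to 105.9, gave -0.35 ± 0.12 (adjusted p = 0.251). Ncam1, the neural cell adhesion molecule, had 359.2, 378.0, 356.6, 407.1 and 488.6 against 331.8, 387.4, 441.4, 455.9 and 443.4, and its 3 probe sets differed by -0.05, -0.16 and -0.20 without passing (-0.02, -0.10 and -0.11 without control replicate 5). L1cam, Nrcam, Cntn1 and Cntn2, immunoglobulin family molecules of axon bundles and nodes, differed by 0.045, -0.065, 0.03 and -0.02, and L1cam and Nrcam by 0.13 and -0.13 without control replicate 5.

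Among the motors, 3 genes were higher and 2 lower, and none passed in limma (0, with 1 at an unadjusted p under 0.05). Kif5a, the neuronal heavy chain that carries neurofilaments, had 589.8, 562.6, 588.0, 559.9 and 506.6 in dehydrated and 605.6, 639.4, 585.8, 634.9 and 680.6 in control pools. The groups overlapped through control replicate 3 (-0.16 ± 0.06, adjusted p = 0.280), and 2 further Kif5a probe sets gave 0.07 and 0.01. Kif5b, the heavy chain of most cell types, had 935.4, 906.3, 809.7, 755.7 and 758.9 against 946.1, 869.4, 782.8, 852.7 and 726.0, a difference of 0.00 ± 0.08 (log2 -0.0036) that came to -0.05 without control replicate 5. The light chain Klc1, which links cargo to them, had 1889, 1805, 1797, 1887 and 1880 in dehydrated and 1776, 1787, 1751, 1816 and 1602 in control pools. Control replicate 4 alone reached into the dehydrated range (0.09 ± 0.05, adjusted p = 0.483), and without control replicate 5, the lowest pool, the difference was 0.05.

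Kif5c and Kif1a were among the genes that split the dehydrated pools. Kif1a, the carrier of synaptic vesicle precursors, had 209.8, 197.7, 358.3, 396.8 and 400.9 in dehydrated and 249.6, 263.1, 314.4, 264.3 and 138.4 in control pools. Kif5c, a neuronal kinesin-1 heavy chain, had 304.4, 275.2, 484.6, 526.7 and 494.3 in dehydrated and 396.6, 386.8, 394.1, 333.0 and 254.0 in control pools. For both genes dehydrated replicates 3, 4 and 5 were above every control, dehydrated replicates 1 and 2 were below 4 of the 5 controls, and control replicate 5 was lowest of all 10. With this spread the differences were 0.32 ± 0.22 (Kif1a, adjusted p = 0.557) and 0.21 ± 0.17 (Kif5c, adjusted p = 0.639). Without control replicate 5 they were 0.13 ± 0.18 and 0.10 ± 0.16. The 2 dimmer Kif1a probe sets above the filter gave -0.01 ± 0.11 and 0.54 ± 0.25. Both genes are named here after their values were seen. The split was not particular to motors. For Tubb2a, Map1b and Crmp1, too, dehydrated replicates 3, 4 and 5 were above every control and replicates 1 and 2 were not. The cause of this split was not tested.

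**Figure D4:**
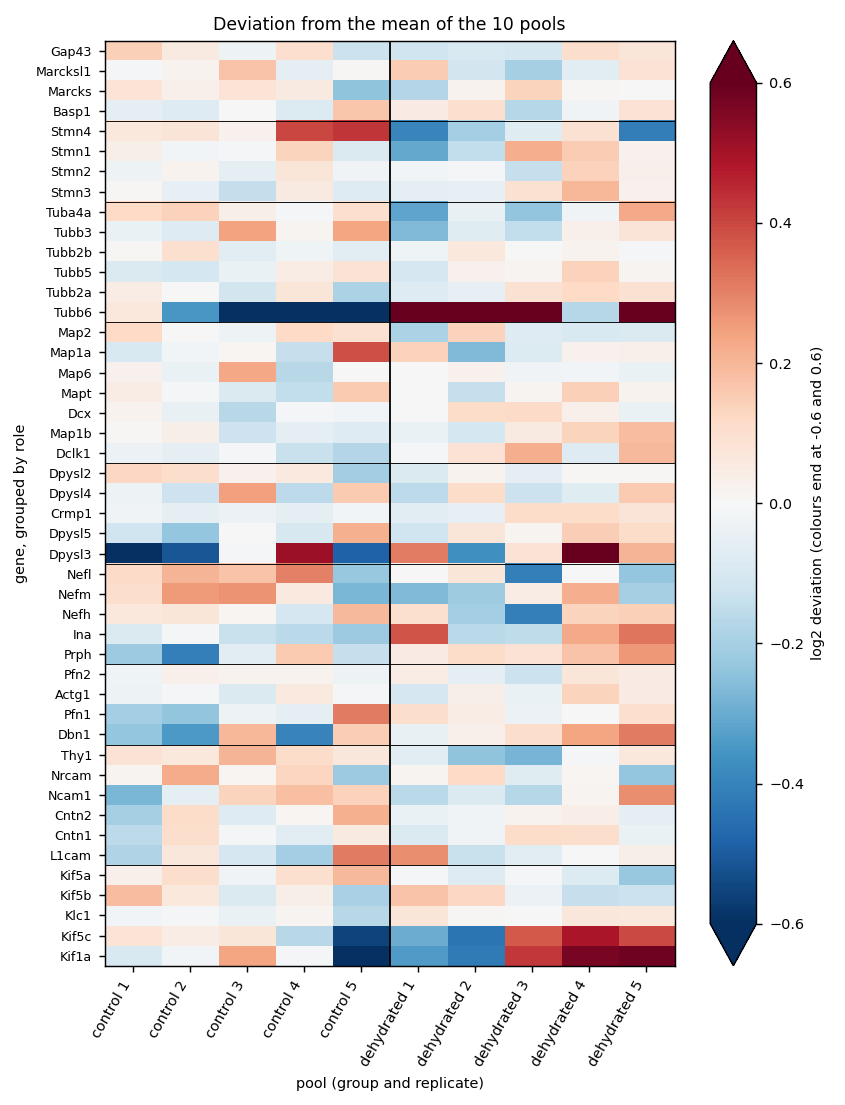
Log2 deviation of each tested gene from its mean over the 10 pools (colour, red above and blue below, ending at -0.6 and 0.6), with genes in rows grouped by role and pools in columns, the 5 control pools left of the black line. Tubb6 and Stmn4 show a change of colour at the line, Kif5c and Kif1a at the bottom are low in dehydrated replicates 1 and 2 and control replicate 5, and most other rows stay pale.

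Other genes of the same machinery gave no call among 4 lists. Of 33 regulators of microtubules, 14 were higher and 19 lower (median -0.03), with Spast, the microtubule-severing spastin, at -0.19 ± 0.08 and Map4 at -0.11 ± 0.06 having the smallest p (adjusted p = 0.355 and 0.473). Of 26 further motors and adaptors 14 were higher (median 0.02), among them Kif3a, a subunit of kinesin-2, at 0.44 ± 0.14 (adjusted p = 0.188) and the myosin gene Myo5a at 0.43 ± 0.14 (adjusted p = 0.211). Of 45 regulators of actin 23 were higher (median 0.00). Fscn1, the actin-bundling protein fascin, had the smallest adjusted p among the lists, with 21.2 ± 2.67 in control and 34.7 ± 1.09 in dehydrated pools (SD, n = 5 each), groups that did not overlap and a difference of 0.63 ± 0.14 (adjusted p = 0.0547). Its control mean lay under the filter limit of 24.1, so that it was tested only through the dehydrated pools, where it is high. Add3, an adducin that caps actin filaments, had a lower mean after dehydration, 686 ± 56.9 against 775 ± 63.6 (-0.18 ± 0.07, adjusted p = 0.312).

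Of 40 genes of axon guidance and regeneration 19 were higher (median -0.01). The netrin receptor Unc5c went from 153 ± 13.0 to 194 ± 17.1 with groups that did not overlap (0.33 ± 0.085, adjusted p = 0.0952), and Mag, a myelin protein that inhibits axon growth, differed by -0.38 ± 0.12 (adjusted p = 0.211). In limma 0 genes of these 4 lists passed, with 1, 2, 4 and 4 at an unadjusted p under 0.05 in the order given. Groups that did not overlap were found for 0, 1, 2 and 1 of them, against 3.36% of all probe sets.

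Marker genes of several cell types differed between the groups as well. Fewer cells of a type and less RNA per cell cannot be told apart in such tissue. Of 9 general neuronal markers 4 were higher and 5 lower (median -0.03), and their summed signal ran from 8505 to 9088 in control and from 8317 to 9693 in dehydrated pools. All 11 tested oligodendrocyte markers were lower (median -0.28), of which Ermn fell (-0.63 ± 0.12, adjusted p = 0.0255). Their sum was 7910 to 9570 in control and 7333 to 7665 in dehydrated pools.

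Among endothelial markers 8 of 9 were higher (median 0.21), with sums of 1204 to 1606 in control and 1478 to 1619 in dehydrated pools. Of 8 markers of smooth muscle, pericytes and meninges 5 were higher (median 0.08), with sums of 286 to 342 and 292 to 392, and Tagln lay under the filter. Of 9 astrocyte markers 3 were higher (median -0.09, sums of 14990 to 17029 and 14849 to 16623), and of 6 microglial markers 1 (median -0.13, sums of 791 to 909 and 709 to 835). All 7 tested markers of paraventricular neurons were higher (median 0.35, sums of 8895 to 11753 and 11448 to 14391), of which prodynorphin (Pdyn) rose by 0.81 ± 0.10 (adjusted p = 5.7e-04). In the remaining lists 1 of 6 markers of oligodendrocyte precursors (median -0.16) and 2 of 5 of ependyma (median -0.06) were higher. For choroid plexus it was 1 of 2 (median -0.19), and for the lateral and other hypothalamus 1 of 5 (median -0.50). Red blood cells had 0 of 2 higher (median -0.53), and of these Hbb fell (-0.67 ± 0.13, adjusted p = 0.0305). The part of these cells in the results on the cytoskeleton genes was not tested.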

How the data were processed

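Each of the 10 pools was measured on 1 array, and the number of arrays limits the precision. The deposited values are linear probe set intensities that the authors made with GCOS 1.2, per the submitters' processing notes, scaled so that the mean after trimming 2% at each end was 100.0 on every array. Which signal algorithm was used, and any present or absent calls, are not given in the sources used here. Of 31042 probe sets other than controls, 20826 had 1 symbol in the platform annotation (old symbols updated through Entrez identifiers for 20758), 436 had several and 9780 had none there. No genome coordinates or sequences were used.

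Signals were analysed as log2(signal + 3.72), the pseudocount being 0.1 of the median of the array medians; log2 differences of dim genes come out too small on this scale. Probe sets with a mean signal at or above the 40th percentile (24.1) were kept, 18629 in all. Groups were compared with lmFit and eBayes with a variance trend (limma 3.58.1, R 4.3.3), two-sided, adjusted by Benjamini-Hochberg over all kept probe sets, and the fit was tested on simulated arrays. Control probe sets and probe set ratios were compared by exact two-sided permutation over 252 assignments. Replicates were numbered in accession order. The labels name no batch, and the numbers in the array titles run in 1 block for each group apart from control replicate 5, so dehydration and a possible array batch cannot be told apart.

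The members and lists were chosen with earlier results of these data known. Values by pool are given for members that passed, that did not overlap between groups or that had the 12 smallest p, and for the 2 brightest of each role, 26 genes together. Of the pathway lists, the 2 genes with the smallest p are named. Kif1a and Kif5c, and single values of other members, were added after their values were seen. Alternatives were other scalings, pseudocounts, filters, variance models and array weights, each array left out, and other probe sets.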

Additional observations from a re-analysis of the deposited data

Results flagged for a closer look

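Single pools far from the rest of their group were looked for in the 26 members described by pool and in the 8 control probe set measures, 68 groups of 5 in all, by the gap to the nearest pool as a share of the group's range (above 0.71). Chance alone gives about 1 such group in 20, so a few are expected among 68. The count found was 5, all of them in control replicate 5. The 52 groups of members held 1 of these and the 16 groups of control measures 4. Control measures are not independent, since several read the same transcript. Marcks had a signal of 940.0 in that pool, where the other controls ran from 1137 to 1180. The beta-actin control probe sets had 432.9 at the 5 prime end (others 156.6 to 210.3), 1047.6 in the middle (others 458.8 to 599.0) and 1941.4 at the 3 prime end (others 1252 to 1380). For the Gapdh controls the 3 prime over 5 prime signal, as log2, was 1.05 there and 1.42 to 1.54 in the other controls.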

How the results depend on the processing

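The count of members that changed was 1 (Tubb6), and it was 0 with no filter, with the 60th percentile filter (where Tubb6 is no longer tested), without the variance trend and with a gene's probe sets averaged. It ran from 0 to 1 with an array left out. Over all probe sets the count was 108, and it was 64 with no filter, 45 without the variance trend, 201 with array weights and 46 to 148 with an array left out. The other settings kept the member count at 1. The cause of these shifts was not tested, beyond the loss of an array or of probe sets from the test.

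On the probe sets that stand for the 26 members described by pool, none but Tubb6 passed under any alternative, and some changed sign around 0. A further Marcks probe set passed without control replicate 5 (-0.32, adjusted p = 0.0420, looked at after the values had been seen). With a gene's probe sets averaged Nefl came to 0.058, Map2 to 0.096, Tubb3 to 0.070, Gap43 to 0.0019, Actg1 to -0.062, Pfn2 to 0.031 and Kif5b to 0.034. This average gives equal weight to probe sets under the filter, such as the second ones of Gap43 (mean signal 0.83) and Tubb3 (14.6). Other probe sets gave 0.069 and 0.013 for Kif5a, -0.012 for Ina, 0.34 for Nefl, 0.31 for Map2, -0.22 for Map1b, -0.16 for Actg1, 0.069 for Pfn2, 0.0015 for Marcks and 0.071 for Kif5b. Quantile normalization gave -0.026 for Actg1. With an array left out the range was -0.080 to 0.051 for Stmn1, -0.026 to 0.024 for Pfn2, -0.065 to 0.039 for Marcks and -0.052 to 0.043 for Kif5b. The beta-actin controls ran from -0.27 to 0.093 (5 prime), -0.11 to 0.19 (middle) and -0.062 to 0.10 (3 prime). No paired analysis was possible because the labels give the pools no replicate numbers shared between groups.

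Dim probe sets such as those of Tubb6, Dpysl3 and Sprr1a lie near the bottom of the signal range, where background is part of the value.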
